A study of Mus musculus with 30 samples.

Results

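The last day of the differentiation time course was examined, from 72 to 96 h after 2i/LIF withdrawal. It was chosen because the fall of Oct4 (gene symbol Pou5f1) was largest in this interval. It holds 4 of the 30 samples of the series, 2 replicates at 72 h and 2 at 96 h. Of the 22477 genes in the expression table, the 12788 with at least 1 FPKM (fragments per kilobase of transcript, scaled to the size of the library) at 72 h or 96 h were compared, and the other 9689 were not.

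The cells are mouse secondary induced pluripotent stem cells (iPSCs), a single line that carries transgenes of the reprogramming factors Oct4, Sox2, Klf4 and cMyc under dox control, GFP in place of 1 of its Nanog alleles, and a constitutive nuclear RFP. Every group compared below carries all of these. The line was kept in serum/LIF on feeders of CF1 mouse embryonic fibroblasts (MEFs), moved to 2i/LIF and then differentiated in N2B27 medium without 2i or LIF, and dox was given to neither the 72 h nor the 96 h cells. The time course also has cells at 0, 24, 36, 48 and 60 h. In a second arm cells were taken at set times and re-seeded in serum/LIF without dox (NoDox in the labels) or with dox (Dox). By the paper's account their RNA was profiled after a further 48 h. Each group has 2 replicates. With 1 line, the values describe that line. Each condition has 1 FPKM value that the authors computed from both replicates together, so no value carries a spread between replicates and no difference between 72 and 96 h could be tested. A gene is said to have risen or fallen when 1 of its FPKM values, itself no less than 1 FPKM, was at least 2 times the other, which is a description of these libraries and not a test.

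2i is a pair of kinase inhibitors that block MEK, which sits below the FGF receptors, and GSK3, which restrains Wnt signalling. Together with the cytokine LIF it holds mouse pluripotent cells in the naive state of the early epiblast. After its removal the cells pass through a formative state, in which naive factors are lost while Oct4 remains, and then lose Oct4 and take up early programmes of ectoderm, mesoderm or endoderm. BMP, Nodal, FGF, Wnt and retinoic acid signals steer that choice in the embryo.

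Pou5f1, which encodes the POU-domain factor OCT4 at the centre of the pluripotency network, is a protein-coding gene on the plus strand of mm10 chromosome 17 from 35506018 to 35510772. At 0, 24, 36, 48, 60, 72 and 96 h it was measured at 199, 279, 217, 205, 139, 123 and 25.5 FPKM, in that order. Across the steps before 72 h its log2 ratios lay between -0.56 and 0.49, and from 72 to 96 h the log2 ratio was -2.27. This fall chose the interval and is given as a description. In bulk RNA, fewer cells with a transcript and less of it per cell cannot be told apart.

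The promoters of 3 genes on which the results turn are printed here, as the 250 bases before the RefSeq start in GRCm38.p6, the same build as mm10. Pou5f1 is shown for the fall that defined the interval, Cyp26a1 for the largest rise among the retinoic acid genes, and Acta1 for its rise among the contractile genes. Each is printed 5′ to 3′ on the strand of its gene, with capitals at the letters that the following paragraph names for it.
Pou5f1: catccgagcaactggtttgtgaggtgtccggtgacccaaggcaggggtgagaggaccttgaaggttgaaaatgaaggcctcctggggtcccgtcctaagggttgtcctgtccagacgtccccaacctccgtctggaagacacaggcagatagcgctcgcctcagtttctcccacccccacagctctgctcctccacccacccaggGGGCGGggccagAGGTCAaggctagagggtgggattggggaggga
Cyp26a1: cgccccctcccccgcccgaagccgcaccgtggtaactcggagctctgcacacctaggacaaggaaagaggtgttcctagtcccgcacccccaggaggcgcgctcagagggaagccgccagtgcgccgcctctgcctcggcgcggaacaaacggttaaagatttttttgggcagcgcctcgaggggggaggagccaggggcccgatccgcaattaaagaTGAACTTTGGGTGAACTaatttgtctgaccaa
Acta1: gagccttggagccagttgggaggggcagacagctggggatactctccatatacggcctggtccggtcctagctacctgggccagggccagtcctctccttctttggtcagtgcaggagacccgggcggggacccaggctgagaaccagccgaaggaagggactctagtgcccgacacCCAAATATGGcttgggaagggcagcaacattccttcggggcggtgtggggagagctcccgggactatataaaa

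The Pou5f1 window is chr17:35505782-35506031 on the plus strand, the first of 2 starts that RefSeq lists for the gene. Its capitals mark GGGCGG, the core of the Sp1 motif, at 45 to 40 bases before the start, and AGGTCA, a half-site of nuclear receptors, at 33 to 28 bases before it. On either strand, GGGCGG was found in 32.7% of the 32851 promoter windows of this length and AGGTCA in 14.02%. The Cyp26a1 window is chr19:37697558-37697807 on the plus strand. Its capitals mark a direct repeat that reads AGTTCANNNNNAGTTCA on the minus strand, at 32 to 16 bases before the start. That spacing of half-sites is the classical form of a retinoic acid response element, and this exact repeat was found in 7 of the 32851 windows, or 0.0213%. The Acta1 window is chr8:123894776-123895025 on the minus strand, and its capitals mark a CArG box, the motif of the serum response factor SRF, at 73 to 64 bases before the start. A CArG box was found in 1.47% of the windows. GGGCGG is also in the other windows, left there in lower case, on the minus strand of Cyp26a1 at 239 to 234 bases before the start, and in Acta1 at 128 to 123 and at 36 to 31 bases before it. Acta1 also has TATAAA, the TATA box, at 7 to 2 bases before the start, a motif of 12.4% of the windows. Gencode M21 places the starts of Pou5f1 and Cyp26a1 within the last bases of these windows. It places the start of Acta1 downstream of its window, so the motifs of Acta1 lie further from that start than the distances given here. The matches describe the letters of the windows, and the table used here holds no measurement of binding.

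Between 72 and 96 h, 652 genes rose (5.10% of the genes compared) and 641 fell (5.01%), while 11495 did neither. The genes that rose went from a median of 1.26 FPKM to 3.57, and those that fell from 3.40 to 1.11. The median log2 ratio over all genes compared was 0.02, and the range from the 5th to the 95th percentile ran from -0.99 to 1.00. The share past 2-fold depended on the level. It was 29.4% among genes whose higher value was 1 to 2 FPKM, 17.5% from 2 to 5, 9.60% from 5 to 10, 4.71% from 10 to 50 and 3.64% at 50 FPKM or more. With both replicates in 1 value and no read counts in the table, the counting error of the low genes is not known, and a change of a gene at 1 to 2 FPKM is read here against the 29.4%. Among the 7181 genes with at least 10 FPKM at either timepoint, 175 rose (2.44%) and 140 fell (1.95%). The counts of each gene list below are to be read against these shares, and against the level of its genes.

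The even split between rises and falls depended on the scale. The FPKM values summed to 603278 at 72 h and 652188 at 96 h, and after scaling both to the same sum 528 genes rose and 808 fell, with a median log2 ratio over all genes of -0.09. The 73 cytosolic ribosomal protein genes, which are among the most abundant transcripts, had a median log2 ratio of 0.12 as deposited and 0.01 after that scaling, and none passed 2-fold. The values are used as deposited below. At the edge of the criteria, the nearest genes had a higher value of 1.001 FPKM inside and 0.9985 FPKM outside, the smallest rise counted was a log2 ratio of 1.0012 and the largest not counted 0.9995, and the corresponding falls were -1.0004 and -0.9994.

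**Figure D1:**
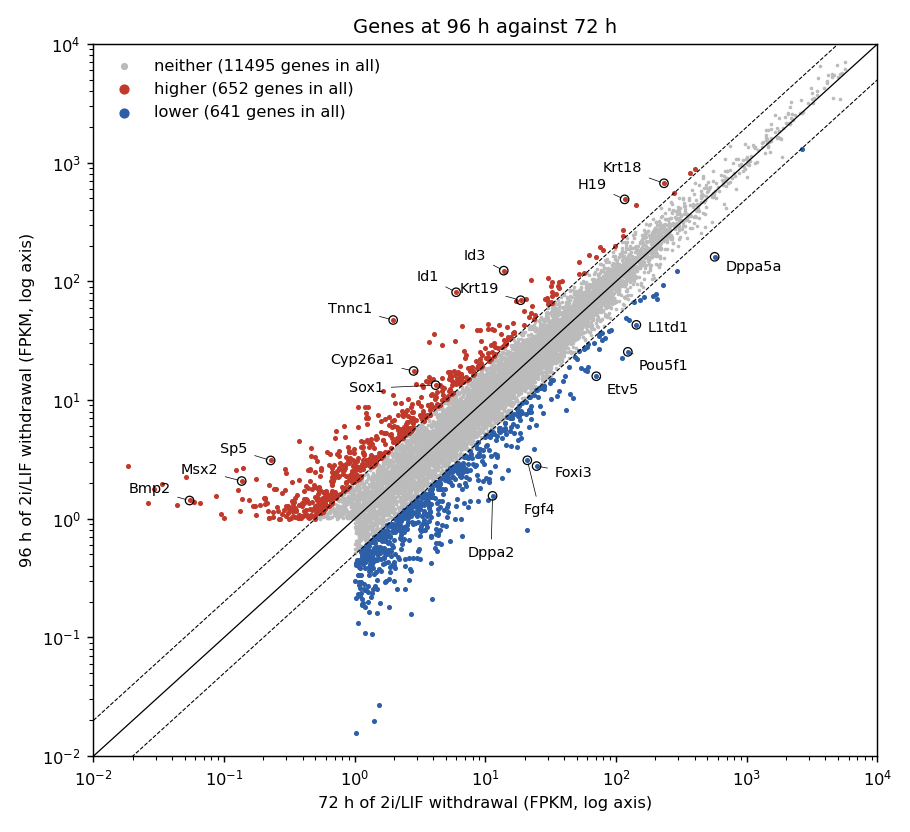
FPKM of each gene at 72 h (horizontal, log axis) and at 96 h (vertical, log axis), with the solid line at equal values, the dashed lines at 2-fold, genes that rose in red, genes that fell in blue and the rest in grey. The 29 genes at 0 at 1 of the timepoints are not drawn, the low end of both axes holds the widest scatter, and Id1, Id3 and Tnnc1 stand above the upper line while Pou5f1, Fgf4 and Foxi3 stand below the lower one.

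The interval was compared with the others of the course. It is 24 h long, as is 0 to 24 h, while the others are 12 h long. The genes past 2-fold in either direction numbered 2961 (23.0%) from 0 to 24 h, 1460 (11.7%) from 24 to 36 h, 593 (4.79%) from 36 to 48 h, 1165 (9.24%) from 48 to 60 h, 662 (5.24%) from 60 to 72 h and 1293 (10.1%) from 72 to 96 h. Of the 2 intervals of equal length, the last day thus had fewer changed genes than the first. At 0 h, 20 fibroblast and feeder genes summed to 1520 FPKM, against 153 at 72 h. The part of feeder RNA in the first day was not tested. At 24 h, 1113 genes were at least 2-fold higher than at 0 h (8.64%) and 1848 lower (14.3%), or 1389 and 1572 after scaling both to the same sum. Which of the 2 days had the more even split thus depended on the scaling, since that scaling evened the first day and tilted the last to falls.

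**Figure D2:**
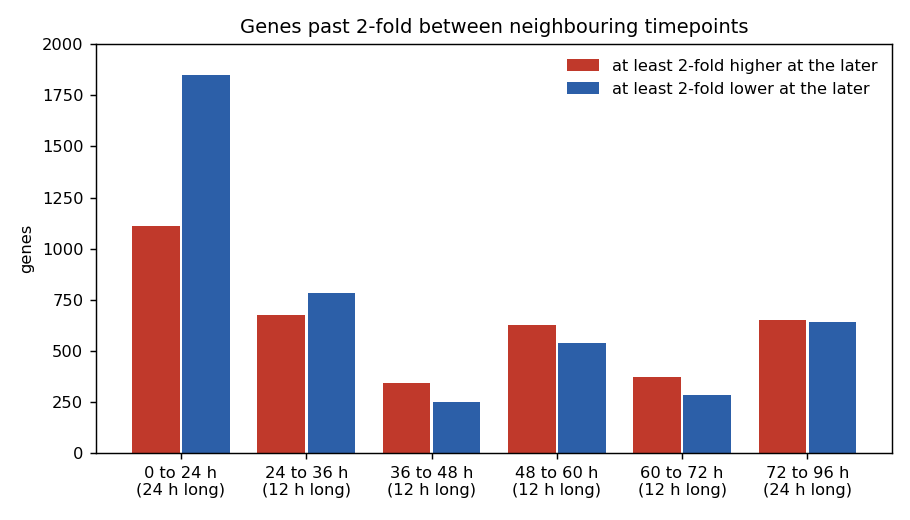
Genes at least 2-fold higher (red) or lower (blue) at the later of 2 neighbouring timepoints, with the number of genes on the vertical axis and the intervals on the horizontal axis. The bars for 72 to 96 h stand at 652 and 641 genes, and the interval lengths differ as written under the bars.

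Many core pluripotency genes fell on the last day. Without Pou5f1, whose fall chose the interval, 8 of 15 core pluripotency genes fell and none rose, with a median log2 ratio of -1.16, where 5.01% of all genes fell. At 10 FPKM or more, 7 of 14 fell, against 1.95% of all genes at that level. Fgf4 went from 20.9 to 3.11 FPKM (log2 ratio -2.75). Fgf4 encodes the FGF ligand of the epiblast and spans 144847367 to 144865243 on chromosome 7. Dppa2, which encodes a chromatin factor of pluripotent cells, went from 11.3 to 1.56 FPKM (log2 ratio -2.86), and its neighbour and partner Dppa4 from 68.2 to 30.5 FPKM. L1td1, which encodes an RNA-binding protein of pluripotent cells, went from 143 to 43.0 FPKM (log2 ratio -1.73). The list's genes of the Nodal branch fell as well. Gdf3, a TGF-beta family ligand, went from 21.6 to 5.88 FPKM, and Tdgf1, the co-receptor of Nodal, from 17.6 to 4.62 FPKM. Foxd3, a forkhead repressor, went from 1.47 to 0.303 FPKM, a low level at which it did not pass 2-fold with 1 FPKM added to both values.

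The other core genes differed among themselves. Nanog, a homeobox gene of which 1 allele carries GFP instead in this line, had 227 FPKM at 0 h and its lowest value, 6.45, at 48 h. At 60, 72 and 96 h it had 21.7, 38.9 and 14.5 FPKM (log2 ratio -1.42 on the last day). It thus fell on the last day from a second maximum. Sox2, the partner of OCT4 on DNA, did not pass 2-fold, at 36.9 FPKM at 72 h and 33.0 at 96 h. Sox2 is also a gene of early neural cells. Sall4, a zinc-finger factor, stood at 72.3 and 115 FPKM, and Lin28a, which blocks the maturation of let-7 miRNAs, at 181 and 188 FPKM. Utf1, a chromatin factor, had 448 FPKM at 72 h and 254 at 96 h.

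Among the naive genes 12 of 16 were compared, of which 5 fell and none rose (median log2 ratio -0.94). The share of all genes that fell was 5.01%. With 1 FPKM added to both values 4 fell, without Nr0b1, and the median was -0.58, and after scaling to the same sum 8 of 13 fell. Most stood far below their level at 0 h by then. The 16 genes summed to 6054 FPKM at 0 h, 645 at 72 h and 203 at 96 h. Dppa5a, an RNA-binding protein gene with related pseudogenes that could share its reads, made up most of these sums, with 4620, 568 and 161 FPKM. The other falls were Esrrb, an orphan nuclear receptor gene, from 9.44 to 3.07 FPKM, Fbxo15, from 18.7 to 4.81, Dppa3, from 6.58 to 2.42, and Nr0b1, from 1.08 to 0.425. Klf4 and Klf5, Krüppel-like factor genes, had 1.69 and 7.76 FPKM at 72 h and 2.07 and 11.03 at 96 h.

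Some of the formative genes fell as well. Of 15 genes 6 fell, 9 did neither and none rose (median log2 ratio -0.84), where 5.01% of all genes fell. The de novo DNA methyltransferase genes fell together, Dnmt3b from 201 to 78.7 FPKM, Dnmt3a from 73.6 to 34.7 and their cofactor gene Dnmt3l from 53.9 to 18.5. Dnmt3b and Dnmt3a were at 586 and 292 FPKM at 48 h, so the falls of the last day continued earlier ones. Tcf15, a bHLH factor gene of the formative state, went from 8.70 to 1.42 FPKM. Fgf5, the classical marker of this state, had 23.1 and 12.7 FPKM and did not pass 2-fold, nor did Otx2, a homeobox gene of the epiblast and forebrain, with 47.8 and 33.7 FPKM, or Pou3f1, a POU factor gene, with 44.0 and 25.9 FPKM.

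Outside these lists, 3 genes that are active in germ cells fell. They are Mael, of the piRNA pathway, from 15.6 to 4.08 FPKM, Dazl, which encodes an RNA-binding protein, from 2.59 to 0.667, and Stk31, from 2.18 to 0.885, among 7 germline genes compared. Over all genes 5.01% fell. Dazl and Stk31 were low, and 17.5% of genes whose higher value was 2 to 5 FPKM passed 2-fold in either direction. Stk31 did not pass 2-fold with 1 FPKM added to both values. The markers of two-cell-like cells, such as Zscan4c, were under 1 FPKM at both timepoints.

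Several genes of the FGF and ERK feedback list fell. Of 18 genes of FGF ligands, receptors and ERK feedback, 6 fell and 2 rose (median log2 ratio -0.75). At 10 FPKM or more 5 of 12 fell and none rose. Over all genes 5.01% fell and 5.10% rose, and at 10 FPKM or more 1.95% fell. The falls were the ligand gene Fgf4, the ETS factor genes Etv4 and Etv5, and the feedback inhibitor genes Spry4, Dusp6 and Dusp4. At 0, 36, 72 and 96 h Etv5 had 106, 143, 70.5 and 15.9 FPKM (log2 ratio -2.15 on the last day). Etv4 had 23.2 FPKM at 0 h, 10.5 at 72 h and 2.17 at 96 h (log2 ratio -2.27). Dusp6, which encodes the ERK phosphatase, was at its highest at 72 h, with 60.2 FPKM after 3.61 at 0 h, and went to 17.6 at 96 h (log2 ratio -1.77). Spry4 went from 5.16 to 1.15 FPKM and Dusp4 from 22.01 to 8.38. Spry1 and Spry2 had 27.2 and 22.04 FPKM at 72 h and 14.8 and 15.8 at 96 h. Among the receptor genes, Fgfr1 had 43.8 and 47.4 FPKM and Fgfr2 40.9 and 60.1. The 2 rises were low, Fgf8, a ligand gene of the streak and of brain organizers, from 2.07 to 4.49 FPKM, and Fgfr3, from 0.935 to 2.27. Neither passed 2-fold when 1 FPKM was added to both values, while the 6 falls did.

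Of 15 genes of the Nodal pathway compared, 3 fell (Nodal, Lefty1 and Tdgf1), 12 did neither and none rose (median log2 ratio -0.07). The share of all genes that fell was 5.01%. Nodal, the TGF-beta family ligand of the epiblast, had 30.5, 7.16, 15.5, 30.9 and 13.9 FPKM at 0, 48, 60, 72 and 96 h (log2 ratio -1.15 on the last day). Lefty1, its secreted inhibitor and target, had 15.04, 9.56, 46.1, 119 and 49.4 FPKM at the same times (log2 ratio -1.27). Both genes thus rose and fell in the same steps after 48 h, and Lefty1 stood at 96 h at about its level of 60 h. Its close relative Lefty2, which could share reads with it, had 57.03 FPKM at 0 h, 7.32 at 72 h and 5.63 at 96 h. Among receptors, the type I and II genes Acvr1b and Acvr2b stood at 9.90 and 15.5 FPKM at 72 h and at 9.41 and 15.5 at 96 h. The transducer genes Smad2 and Smad4 had 15.5 and 32.3 FPKM at 72 h and 15.7 and 32.04 at 96 h. Foxh1, the nuclear partner of SMAD2, had 58.2 and 32.6 FPKM.

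The BMP list, of ligands, receptors, targets and inhibitors, had the largest median among the lists of signalling pathways. Of 15 BMP genes compared, 9 rose and none fell (median log2 ratio 1.93, or 1.20 with 1 FPKM added to both values), and at 10 FPKM or more 4 of 7 rose. Against these counts, 5.10% of all genes rose, and 2.44% of those at 10 FPKM or more. The Id genes, which encode inhibitors of bHLH factors and are direct targets of BMP signalling, led them. Id1, at 152736251 to 152737410 on chromosome 2, had 8.55, 16.2, 3.51, 3.75, 4.53, 5.96 and 80.9 FPKM over the 7 timepoints in order. The value at 96 h is 13.6 times that at 72 h (log2 ratio 3.76), and the 6 earlier values lay at 16.2 FPKM or below. Id3, at 136143497 to 136145755 on chromosome 4, went from 13.8 to 123 FPKM (log2 ratio 3.16), after an earlier maximum of 40.9 FPKM at 36 h. Id2 went from 11.5 to 39.0 FPKM, while Id4 stayed under 1 FPKM, at 0.634 and 0.974.

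Of the BMP ligand genes, Bmp7 went from 6.85 to 26.1 FPKM, Bmp4 from 0.918 to 3.68 and Bmp2 from 0.0544 to 1.42. Bmp7 was thus the most abundant of the 3 at both timepoints. The homeobox genes Msx1 and Msx2, targets of the pathway in ectoderm and mesoderm, went from 0.461 to 3.93 and from 0.136 to 2.08 FPKM. Nog, the gene of the secreted BMP antagonist Noggin, went from 0.203 to 1.49 FPKM. All of these but Bmp7 were low, in the range where a larger share of genes passed 2-fold, and each still passed when 1 FPKM was added to both values. The receptor and transducer genes did not pass 2-fold. Bmpr1a had 19.5 and 23.6 FPKM, Bmpr2 3.72 and 4.90, Smad1 8.60 and 12.02 and Smad5 8.86 and 10.3. Smad6 and Bambi, inhibitor genes that BMP signalling induces in many cells, did not pass 2-fold either, with 3.60 and 1.92 FPKM at 72 h and 2.73 and 2.52 at 96 h.

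Several retinoic acid genes rose as well. Of 15 compared, 6 rose and none fell (median log2 ratio 0.49), and 5 of the 8 with at least 10 FPKM rose. Over all genes 5.10% rose, and 2.44% of those at 10 FPKM or more. Crabp2 and Meis1 did not pass 2-fold with 1 FPKM added to both values, nor did Crabp2 after scaling to the same sum. Cyp26a1 encodes the enzyme that degrades retinoic acid and is itself induced by it. It lies at 37697798 to 37701536 on chromosome 19, and its promoter is the one printed above with the direct repeat. It was at or below 0.251 FPKM up to 48 h, and at 60, 72 and 96 h it had 2.49, 2.82 and 17.6 FPKM (log2 ratio 2.64 on the last day). The genes of the binding proteins rose too, Crabp1 from 9.22 to 31.3 FPKM and Crabp2 from 32.3 to 65.5. Crabp2 had its maximum earlier, with 109 FPKM at 48 h. The TALE homeobox genes Meis1 and Meis2 went from 0.235 to 1.13 and from 5.92 to 13.7 FPKM. The receptor genes Rara and Rarg, with 11.4 and 48.1 FPKM at 72 h and 9.45 and 35.8 at 96 h, did not pass 2-fold. Aldh1a2, which makes retinoic acid in the embryo, was under 1 FPKM at both timepoints, and Aldh1a3 had 2.64 and 1.61 FPKM.

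**Figure D3:**
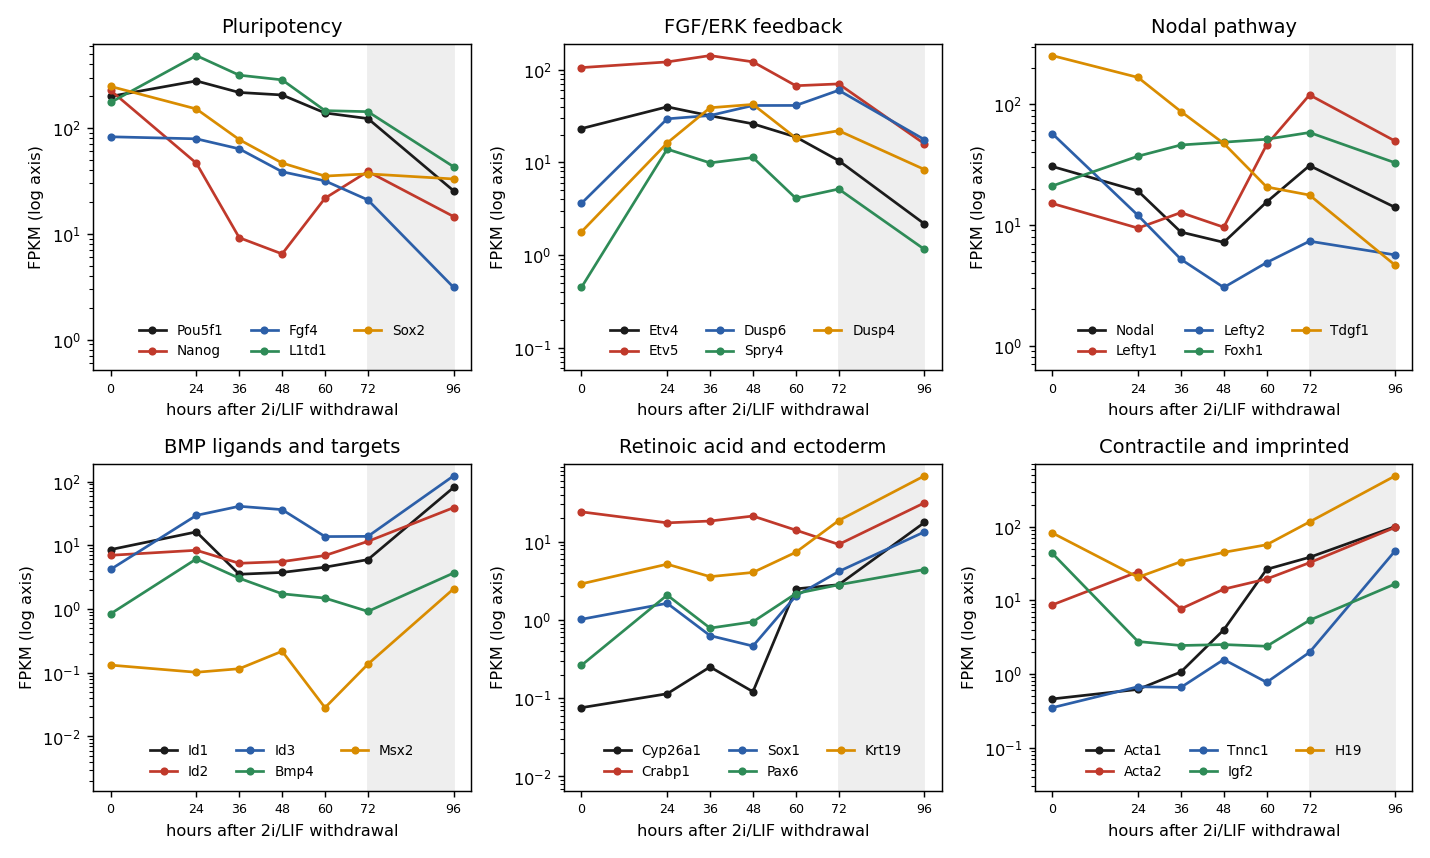
FPKM (log axis) of 30 genes against hours after 2i/LIF withdrawal, 5 genes to a panel, with 72 to 96 h shaded and 1 pooled value per point. In the shaded interval every gene of the pluripotency and FGF/ERK panels stands lower at 96 h than at 72 h, Nodal and Lefty1 stand lower at 96 h than at 72 h, and the genes of the lower row stand higher.

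Several early ectoderm genes rose, among them both neural and surface genes. Of 14 neurectoderm genes compared, 8 rose and 1 fell, where 5.10% of all genes rose and 5.01% fell. The median log2 ratio was 1.09 over the 13 that were above 0 at both timepoints. With 1 FPKM added to both values only Sox1, Sox11 and Pax3 passed 2-fold, and the median was 0.60, and after scaling to the same sum 6 of 13 rose. Sox1, the earliest neural Sox gene, had 0.464, 2.02, 4.16 and 13.3 FPKM at 48, 60, 72 and 96 h (log2 ratio 1.68 on the last day). Sox11, another Sox gene of neural precursors, went from 6.36 to 19.2 FPKM. These were the 2 of 5 neurectoderm genes with at least 10 FPKM that rose. Irx3, Cdh2 (N-cadherin), Sox21, Hes5 and Lhx2 reached between 1.02 and 5.88 FPKM at 96 h, from 0.206 to 2.77 at 72 h, and these 5 are the rises lost with 1 FPKM added. Pax3, a gene of dorsal neural tube and crest, was listed at 0 at 72 h and at 1.23 FPKM at 96 h. Nkx6-2 fell from 1.53 to 0.747 FPKM. Pax6 had 2.81 and 4.41 FPKM and Sox3 18.7 and 15.9. Genes of later neurons differed among themselves, and none rose past 2-fold. Of 11 compared, 1 fell (Elavl4, an RNA-binding protein gene of neurons, to 1.17 FPKM, a log2 ratio of -1.36). The median log2 ratio was -0.55 and the highest 0.94, that of Stmn2. The 16 genes of the list summed to 125 FPKM at 72 h and 134 at 96 h. Dcx, Neurog1 and Neurog2 were under 1 FPKM at both timepoints. After scaling to the same sum 4 of the 11 fell, and with 1 FPKM added to both values none did.

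Of 15 neural crest and surface ectoderm genes, 9 rose and 1 fell (median log2 ratio 1.27), where 5.10% of all genes rose. With 1 FPKM added to both values 6 rose, without Tfap2a, Dlx3 and Snai2, and the median was 0.67. The most abundant were the simple-epithelial keratins, whose genes have processed copies that could share reads. At 0, 48, 60, 72 and 96 h Krt18 had 11.4, 55.2, 145, 232 and 670 FPKM (log2 ratio 1.53 on the last day). Its partner Krt8 had 12.8, 16.2, 48.9, 113 and 272 FPKM at the same times, and Krt19 2.89, 4.04, 7.32, 18.6 and 69.4. Each of the 3 stood higher at each of these times than at the one before. The factor genes Tfap2a, Gata2, Dlx3 and Snai2 reached 1.06, 2.67, 2.17 and 1.68 FPKM at 96 h, from 0.946 or less at 72 h. The lists share members, so their counts are not separate observations. Msx2, counted among the BMP genes above, has the largest log2 ratio of this list (3.93). Gata2 is counted again among the trophoblast genes and Snai2 among the epithelial and mesenchymal genes. Sox10, which marks migrating crest, was at 0.0985 and 0.107 FPKM.

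Streak, mesoderm and endoderm genes were mostly under 1 FPKM. Of 17 primitive streak genes 3 were compared and 2 rose, Fgf8 and Sp5 (median log2 ratio 1.11), where 5.10% of all genes rose. The defining genes T, Mixl1 and Eomes had 0.531, 0.263 and 0.762 FPKM at 72 h and 0.1502, 0.0637 and 0.515 at 96 h. Of 15 endoderm genes 6 were compared, and all 6 stood higher at 96 h, with log2 ratios from 0.38 to 1.15 and a median of 0.84. Only 2 of them passed 2-fold, and neither of the 2 with at least 10 FPKM did. Gata6 went from 0.504 to 1.10 FPKM and Cxcr4 from 0.527 to 1.17, while Sox17 and Foxa2 stayed under 1 FPKM. Neither Gata6, Cxcr4 nor Fgf8 passed 2-fold with 1 FPKM added to both values. Of 3 lateral and cardiac mesoderm genes compared, 1 rose and 1 fell.

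Several Wnt genes rose from low levels. Of 14 Wnt genes compared, 5 rose and none fell (median log2 ratio 0.63), where 5.10% of all genes rose. None of the 5 reached 10 FPKM. The share past 2-fold in either direction was 29.4% at 1 to 2 FPKM, 17.5% at 2 to 5 and 9.60% at 5 to 10. With 1 FPKM added to both values 4 rose, without Rnf43, and the median was 0.37. Axin2, the feedback inhibitor gene that reads out canonical signalling in many tissues, had 23.7 FPKM at 0 h, in the presence of the GSK3 inhibitor. It had 1.96 at 48 h, 2.80 at 72 h and 7.96 at 96 h (log2 ratio 1.51). Sp5, a zinc-finger target gene, followed the same order, with 26.7, 0.0734, 0.227 and 3.10 FPKM at 0, 48, 72 and 96 h (log2 ratio 3.77 on the last day). The ligand gene Wnt7b went from 2.01 to 6.06 FPKM, the antagonist gene Dkk1 from 0.242 to 1.79 and Rnf43, which encodes an inhibitor of the receptors, from 0.654 to 1.40. Wls, needed for the secretion of Wnt proteins, went from 8.60 to 38.8 FPKM (log2 ratio 2.17). The factor genes Lef1 and Tcf7 had 7.76 and 38.6 FPKM at 72 h and 6.34 and 25.2 at 96 h.

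**Figure D4:**
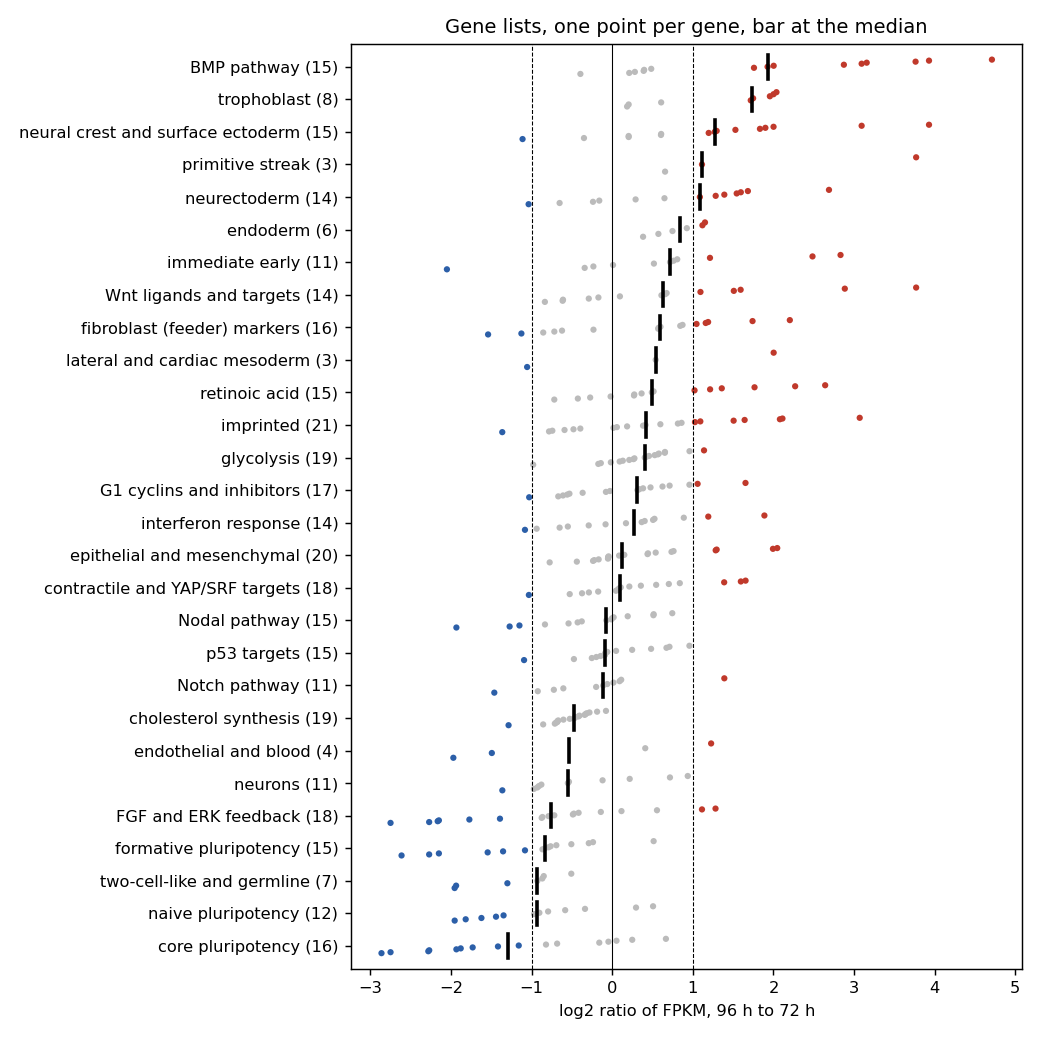
Log2 ratio of FPKM at 96 h to 72 h (horizontal axis) for each compared gene of the lists with at least 3 genes compared, 1 point per gene and 1 row per list, with the number compared in brackets, the median as a black bar, and the dashed lines at 2-fold. The BMP list has the highest median, 1.93, and the core pluripotency list, here with Pou5f1, the lowest, -1.29, and most lists have points on both sides of 0.

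Genes of the contractile cytoskeleton did not move as 1 group. Of 18 genes that SRF or YAP are known to regulate, 3 rose and 1 fell, where 5.10% of all genes rose and 5.01% fell. At 10 FPKM or more 2 of 17 rose and 1 fell, against 2.44% and 1.95% of all genes at that level. The median log2 ratio of the 18 was 0.10, and changed sign to -0.02 when both timepoints were scaled to the same sum. The skeletal and smooth muscle actin genes rose. Acta1, on the minus strand of chromosome 8 from 123891769 to 123894751 and the owner of the CArG box printed above, had 0.457, 3.97, 26.3, 38.4 and 100.5 FPKM at 0, 48, 60, 72 and 96 h (log2 ratio 1.39 on the last day). Acta2 went from 32.4 to 97.9 FPKM and Ankrd1, a muscle ankyrin repeat gene, from 2.34 to 7.37. Ctgf, a matricellular YAP target gene, fell from 60.7 to 29.6 FPKM. Srf itself had 23.1 and 24.9 FPKM, and Cyr61, another YAP target, 96.0 and 101 FPKM. The largest rise of all genes that reached 10 FPKM was that of Tnnc1, which encodes the slow and cardiac troponin C. Tnnc1 was at or below 1.97 FPKM from 0 to 72 h and at 47.2 FPKM at 96 h, 24.0 times the value at 72 h (log2 ratio 4.59). It lies at 31208312 to 31211729 on chromosome 14.

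Of 20 epithelial and mesenchymal genes, 4 rose and none fell (median log2 ratio 0.12), where 5.10% of all genes rose. None of the 10 with at least 10 FPKM rose. Zeb2, a repressor of E-cadherin, went from 1.60 to 6.61 FPKM, Cdh11 from 0.339 to 1.35, Snai2 from 0.684 to 1.68 and Cdh2 from 1.31 to 3.20, of which only Zeb2 passed 2-fold with 1 FPKM added to both values. Their median was 0.01 after scaling to the same sum. The most abundant genes of the list did not pass 2-fold. Cdh1 (E-cadherin) had 193 and 113 FPKM, Epcam 182 and 176, and Vim, the intermediate filament gene of mesenchyme, 57.03 and 63.3.

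Several imprinted genes, which are transcribed from 1 parental allele, rose. Of 21 compared, 7 rose and 1 fell (median log2 ratio 0.41), and 5 of 14 with at least 10 FPKM rose. The shares of all genes that rose were 5.10%, and 2.44% at 10 FPKM or more. After scaling to the same sum Peg10 and Sgce did not pass 2-fold, which left 3 of 14, and with 1 FPKM added to both values Sgce and Kcnq1ot1 did not. The noncoding RNA H19 went from 116 to 491 FPKM (log2 ratio 2.08) and Igf2, the growth factor gene of the same cluster, from 5.35 to 16.7. Nnat went from 32.0 to 90.8 FPKM, Peg10 from 113 to 242 and its neighbour Sgce from 23.5 to 47.9. The antisense RNAs Airn and Kcnq1ot1 went from 1.05 to 8.81 and from 0.296 to 1.28 FPKM. Without stated strand in the counting, their reads cannot be separated from those of the genes they overlap. Grb10 fell from 16.1 to 6.27 FPKM, and Meg3 and Rian, noncoding RNAs of the Dlk1 cluster, had 187 and 483 FPKM at 72 h and 249 and 288 at 96 h.

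Few of the metabolic genes passed 2-fold. Over all genes 5.10% rose and 5.01% fell, and the counts of the 5 lists that follow are to be read against these shares. Of 19 glycolysis genes 1 rose, the neuronal-type glucose transporter gene Slc2a3, from 404 to 890 FPKM, after 24.9 at 36 h (median log2 ratio of the list 0.40). All 19 cholesterol synthesis genes stood below 0 on the log2 scale, with a median of -0.47, but only Lss, lanosterol synthase, passed 2-fold, from 18.0 to 7.39 FPKM. Of 17 genes of G1 cyclins and inhibitors, Ccnd2 and Cdkn2c rose and Myc fell, the last from 15.7 to 7.70 FPKM, but none of the 3 passed 2-fold with 1 FPKM added to both values. Of 15 p53 targets Pmaip1, which encodes the cell-death protein NOXA, fell from 77.9 to 36.5 FPKM, and Cdkn1a had 24.5 and 47.5 FPKM. Among 11 immediate early genes, with a median log2 ratio of 0.72, Fos, Fosb and Atf3 rose and Egr2 fell, the last not with 1 FPKM added. Fos, which encodes a subunit of the AP-1 factor, went from 1.95 to 10.9 FPKM.

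The genes named by size alone include further rises and falls. Among the 15 largest rises by ratio at 10 FPKM or more, outside the lists, were Pmp22, a myelin and epithelial membrane protein gene, from 4.05 to 35.7 FPKM, Ptn, which encodes the growth factor pleiotrophin, from 1.63 to 11.9, the annexin gene Anxa2, from 22.4 to 103, and Cryab, a small heat shock protein gene, from 9.07 to 39.1. Among the 15 largest falls were Foxi3, a forkhead gene of ectodermal placodes, from 24.6 to 2.78 FPKM (log2 ratio -3.15), the synaptic vesicle gene Doc2a, from 10.5 to 1.43, Hsf2bp, a meiotic recombination gene, from 13.3 to 2.22, and Trh, the thyrotropin-releasing hormone gene, from 10.6 to 2.05. The retrogene copies Rpl10l and Rpl39l also fell, from 14.9 to 2.58 and from 41.5 to 8.32 FPKM, and their reads may be shared with the genes they derive from. The 10 largest increases in FPKM were the metallothionein genes Mt2 and Mt1, the ferritin light chain gene Ftl1 and 7 ribosomal protein genes, none past 2-fold. Mt2 had the largest, 2913 FPKM, from 3655 to 6568. The largest decrease in FPKM was that of Yam1. The 10 largest also include the histone genes Hist1h2ao, Hist1h2ap, Hist1h2af and Hist1h4d, and the ferritin heavy chain gene Fth1, with 1869 and 1123 FPKM.

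Genes that had risen in the step before went either way. Of 67 genes that had at least 10 FPKM at 72 h and stood at least 2-fold above 60 h, 6 then fell and 7 rose again. Over all genes with at least 10 FPKM at 72 or 96 h, 1.95% fell and 2.44% rose. The 6 that fell were the histone gene Hist1h2ag, Il17rd (an FGF feedback inhibitor gene), Lefty1, Nodal, Bhlhe40 (a bHLH repressor gene) and Ctgf. Both ratios share the value at 72 h. Histone genes belong to a family of near-identical copies, and most of their transcripts lack a poly(A) tail. Of 59 histone genes compared, 36 were at least 2-fold higher at 72 h than at 60 h (2.97% of all genes were), with a median log2 ratio of 1.19. From 72 to 96 h 5 of 59 fell (5.01% of all genes did), with a median of -0.37. Malat1, a nuclear noncoding RNA picked after its value was seen, had 181, 142 and 438 FPKM at 60, 72 and 96 h.

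The columns that did not choose the genes were then read for the same genes. From 0 to 60 h, 108 of the 474 genes that later rose and had at least 1 FPKM at either time were at least 2-fold higher at 60 h (22.8%, against 13.2% of all genes) and 167 lower (35.2%, against 11.4%), with a median log2 ratio of -0.38. Of the 581 genes that later fell, 179 were higher (30.8%) and 169 lower (29.1%), with a median of 0.01. Genes of both groups had thus passed 2-fold in both directions between 0 and 60 h. These genes were low. Over all genes that rose, fell or did neither on the last day, the medians at 60 h were 1.40, 3.31 and 12.2 FPKM. Low genes passed 2-fold more often on the last day, and no share of genes of the same level was computed here. The part of scatter at low levels in these shares was not tested. The 0 h column also holds more fibroblast RNA, as 20 fibroblast and feeder genes summed to 1520 FPKM at 0 h and 153 at 72 h. Its part in these ratios was not tested. Genes that rose were also chosen in part for a low value at 72 h, and 60 h is the timepoint before it.

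The re-seeded cells gave values from other libraries. Cells re-seeded without dox after 48 h and after 96 h of withdrawal differ in how long they had differentiated, and neither column entered the choice of genes. Both had a further 48 h in serum/LIF before profiling, so they are not the 48 h and 96 h cells of the course. Of the 562 genes that rose on the last day and had at least 1 FPKM in either column, 274 were at least 2-fold higher in the cells re-seeded after 96 h (48.8%, against 9.22% of all genes) and 46 lower. Of the 451 that fell, 238 were lower (52.8%, against 9.64%) and 37 higher. The median log2 ratios were 0.95 for the genes that rose, -1.11 for those that fell and -0.03 for the rest. Among single genes, Pou5f1 had 72.6 FPKM in cells re-seeded after 48 h and 2.63 after 96 h, Lefty1 96.2 and 1.32, Etv5 57.2 and 4.73, Id1 51.1 and 275, Krt19 85.9 and 513 and H19 759 and 11602. Sox1 had 0.208 and 0.893 FPKM there, below its values at 72 and 96 h of the course. The fibroblast collagen genes Col1a1 and Col1a2 had 4.97 and 4.32 FPKM in the cells re-seeded after 48 h and 33.2 and 86.0 in those re-seeded after 96 h. The colony assay of the study re-seeded cells on MEF feeders, on what the RNA-seq cells grew is not given in the sources used here, and the part of feeder cells was not tested. With dox, the cells re-seeded after 96 h had 9.95 FPKM of Pou5f1, in which reads of the transgene cannot be told apart.

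**Figure D5:**
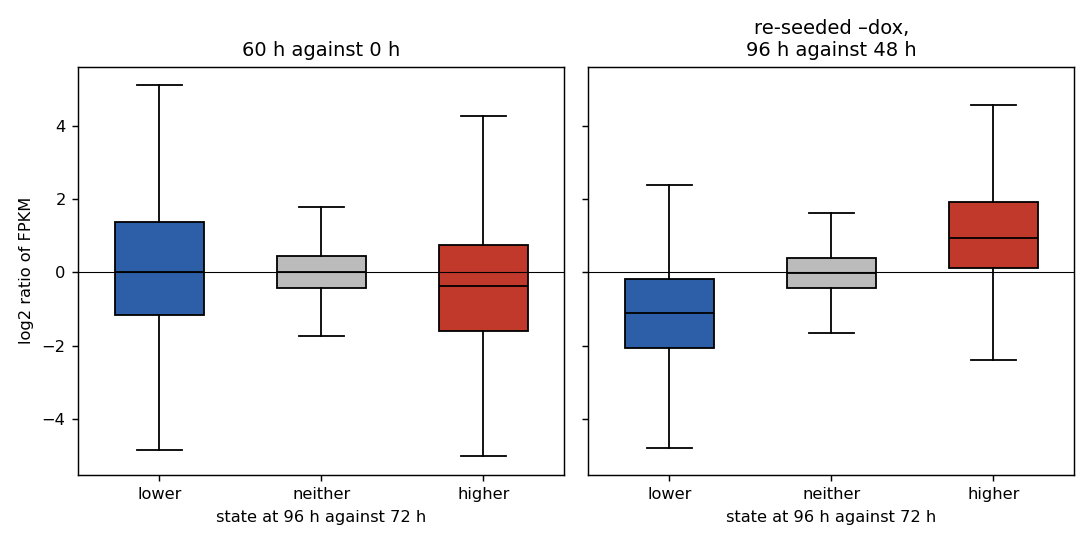
Log2 ratios of FPKM (vertical axis) of the genes that fell (blue), did neither (grey) or rose (red) from 72 to 96 h, for 60 h against 0 h (left) and for cells re-seeded without dox after 96 h against those re-seeded after 48 h (right). Lines in the boxes are medians, boxes span the quartiles and whiskers reach 1.5 times that span, and the medians on the right are -1.11, -0.03 and 0.95.

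Markers of other cell types were listed beside these results. Of 16 fibroblast and feeder genes compared, 5 rose and 2 fell, or 1 and 1 with 1 FPKM added to both values. Over all genes 5.10% rose and 5.01% fell, and each count of this paragraph is to be read beside these shares. Their list of 20 summed to 1520 FPKM at 0 h, 153 at 72 h and 259 at 96 h, of which Sparc, which many cell types express, made up 116 and 213. Col1a1 had 3.14 and 5.64 FPKM and Col1a2 2.96 and 13.6, against 229 and 160 at 0 h, Thy1 fell from 8.64 to 3.96, and Fap was at 0 at both. Of 8 trophoblast genes compared 5 rose, Krt7 (3.51 to 14.4 FPKM), Gata2, Plac1 (0.847 to 2.84) and the homologous Rhox6 (3.63 to 14.1) and Rhox9 (2.50 to 8.24). The defining factor genes Cdx2, Elf5 and Eomes were under 1 FPKM, with Cdx2 at 0 at 96 h. Of 16 endothelial and blood genes 4 were compared, of which Runx1 rose from 0.577 to 1.35 FPKM, and Pecam1 and Eng fell from 4.34 to 1.11 and from 6.42 to 2.28, while Ptprc was at 0. Runx1 did not pass 2-fold with 1 FPKM added. Of 14 interferon response genes 2 rose and 1 fell, and the 2 rises were lost with 1 FPKM added. The part of other cell types in the results was not tested.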

How the data were processed

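Polyadenylated RNA was sequenced at 7 timepoints of 2i/LIF withdrawal and in 8 re-seeded conditions, with 2 replicates in each of the 15 conditions. According to the paper's methods and the submitters' processing notes, the authors used TopHat 2.0.14 to map reads to mm10 and Cufflinks 2.2.1 to measure the transcripts of Gencode M4. Cuffdiff combined the replicates into the deposited FPKM values, 1 per gene and condition. The normalization Cuffdiff applied is not given in the sources used here. The table also holds the authors' calls of dynamic and dox-responsive genes, which were not used.

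The FPKM values were used as deposited, with Python 3.11.15, numpy 2.4.6 and pandas 2.3.3 (plots with matplotlib 3.10.9). Ratios were taken without a pseudocount, genes needed 1 FPKM at either timepoint, and a gene at 0 at one of them was counted without a ratio. The counting steps were tested on simulated data. Depth is not given. Steps between the low values put a 2 kb gene at 1 FPKM at about 29.2 steps at 72 h and 38.9 at 96 h, which are not read counts. No test was possible with pooled values.

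The genes named are those of the gene lists, the 15 largest ratios each way at 10 FPKM or more, the 10 largest differences in FPKM each way, the 10 largest falls after a rise to 72 h, and genes said to be picked after their values were seen. Unnamed predicted genes and symbols that a spreadsheet had turned into dates are counted but not printed. A few genes that the lists count are not reported here by name. The interval and the lists were chosen with earlier results of these data known. Positions are from Gencode M21 on mm10, which has 94.7% of the symbols, and promoters from RefSeq. Alternatives for the minimum, the fold, the pseudocount and the scaling were computed. ChIP-seq, ATAC-seq and methylation data were not analysed here.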

Additional observations from a re-analysis of the deposited data

How the results depend on the processing

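Every count of changed genes follows the minimum expression and the fold asked for, and the pooled values limit all of them. With at least 1 FPKM at both timepoints 364 genes rose and 349 fell, and with at least 5 FPKM at the higher timepoint 281 and 235. With no minimum, and genes at 0 left out, 1439 rose and 1599 fell. At 1.5-fold the counts were 1645 and 1507, and at 4-fold 140 and 139. Adding 1 FPKM to both values gave 324 rises and 286 falls, and adding 0.1 FPKM gave 609 and 587. Scaling by median ratios gave 650 and 645, scaling to the same upper quartile 634 and 656, and scaling to the same sum 528 and 808, with a median log2 ratio over all genes of -0.0946 in place of 0.02. Among the genes of the naming rule, 138 passed 2-fold. With 1 FPKM added 37 of them lost it, with 0.1 FPKM added 6, and after scaling to the same sum 8. Under that scaling 12 others gained it. None passed 2-fold in the opposite direction, which these settings could not have brought about. The list medians moved by more than 0.1 in 15 of 29 lists with 1 FPKM added. After scaling to the same sum all 29 did, because that scaling shifts every log2 ratio by the same amount. Restricted to genes with at least 5 FPKM on the last day, an alternative added after seeing the data, the median log2 ratio between cells re-seeded after 96 h and after 48 h was 0.80 for the genes that rose and -1.29 for those that fell. The scaling of the first day and the core pluripotency count without Pou5f1 were also added then. No paired analysis was possible because the table gives 1 value per condition, and for the same reason no replicate could be left out in turn. The depth behind the low values is not known, so changes under about 2 FPKM are the least secure.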
